A study of Mus musculus with 8 samples.

Results

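The genes described here are 50 named genes of the mammalian cell cycle, chosen by known function but with earlier results of these data known. They are 16 that build or copy DNA, 26 that act in mitosis, 5 cyclins of the G1 phase and 3 transcription factors that switch cell cycle genes on. Of these, 49 had a probe set with a single gene symbol, out of 17097 genes measured in all, and Ccnb1 was not analysed here. Where a gene had several such probe sets, the brightest on average across the 8 arrays stood for the gene, which concerned 29 of the 49 genes. All values are the deposited log2 signals, so a difference of 1 is a 2-fold difference.

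The study set fibroblast-derived hepatocyte-like lines against the fibroblasts they start from and against liver cells, at the level of the transcriptome. Induced hepatocyte-like cells (iHep) were 3 expandable epithelial lines at passage 10, grown in medium with dexamethasone, nicotinamide and the growth factors FGF4, HGF and EGF after retroviral transduction of fibroblasts, 1 array each. Line 4a1CK carried Hnf4a, Foxa1, c-Myc and Klf4, line 4a3CK carried Hnf4a, Foxa3, c-Myc and Klf4, and line 4a3 carried Hnf4a and Foxa3 alone. Primary hepatocytes (PH, 3 arrays) came from livers of male C57/B6 mice aged 8 to 10 weeks, were freed with collagenase and were then kept in the same kind of medium. Mouse embryonic fibroblasts (MEF, 2 arrays) came from C57/B6 embryos at day 13.5. A line stands for 1 culture of 1 factor set, so factor set and line cannot be told apart. The labels do not say that the PH or MEF arrays came from separate animals or cultures, so a p-value here covers no more than the spread among the arrays of a group, which may be technical.

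A dividing cell first makes the enzymes that supply nucleotides and the helicase and clamp that copy DNA, mainly under E2F transcription factors. Later, in G2 and mitosis, it makes the kinases, kinesins, centromere and spindle checkpoint proteins that separate the chromosomes, many of them through the CHR promoter element bound by complexes that hold B-Myb (Mybl2) and FoxM1. Adult hepatocytes are mostly quiescent in the liver but can re-enter the cycle, and both HGF and EGF act as mitogens on them in culture. In a bulk sample, fewer cycling cells and less RNA per cycling cell cannot be told apart.

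The promoters of the replication and the mitotic genes differed in the letters they held. As examples, 5 that hold such letters are printed, from genes whose expression is described below. The RefSeq windows (GRCm38.p6, 250 bases before to 50 after the annotated start) matched 38 of the 49 genes. Capitals mark E2F letters (the word TTCCCGC, the word TTCGCGC, the word TTGCCGC or the word TTGGCGC) in the helicase genes Mcm5 and Mcm3, E2F and CHR letters (the word TTTGAA or the word TTCGAA) in the mitotic kinase gene Cdk1, and CHR letters in the centromere histone gene Cenpa and the checkpoint kinase gene Bub1. Letters were sought on both strands, and neighbouring matches can overlap.
Mcm5, chr8:75109259-75109558, plus strand: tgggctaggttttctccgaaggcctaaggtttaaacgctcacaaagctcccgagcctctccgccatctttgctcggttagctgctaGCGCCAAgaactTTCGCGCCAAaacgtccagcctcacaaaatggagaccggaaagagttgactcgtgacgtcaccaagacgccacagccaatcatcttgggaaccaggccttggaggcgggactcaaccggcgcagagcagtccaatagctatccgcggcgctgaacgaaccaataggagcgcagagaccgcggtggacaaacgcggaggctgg
Mcm3, chr1:20820263-20820562, minus strand: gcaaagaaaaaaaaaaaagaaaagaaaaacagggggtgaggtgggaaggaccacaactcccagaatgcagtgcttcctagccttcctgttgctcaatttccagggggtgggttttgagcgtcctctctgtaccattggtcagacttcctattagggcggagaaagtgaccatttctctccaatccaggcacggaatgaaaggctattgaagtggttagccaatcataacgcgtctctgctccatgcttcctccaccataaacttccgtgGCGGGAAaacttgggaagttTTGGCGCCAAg
Cdk1, chr10:69352863-69353162, minus strand: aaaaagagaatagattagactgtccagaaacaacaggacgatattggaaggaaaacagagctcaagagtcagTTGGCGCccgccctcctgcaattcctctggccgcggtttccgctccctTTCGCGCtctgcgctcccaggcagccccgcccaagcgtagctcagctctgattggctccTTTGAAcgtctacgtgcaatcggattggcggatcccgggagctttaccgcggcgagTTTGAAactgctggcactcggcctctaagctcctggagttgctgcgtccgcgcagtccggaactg
Cenpa, chr5:30666636-30666935, plus strand: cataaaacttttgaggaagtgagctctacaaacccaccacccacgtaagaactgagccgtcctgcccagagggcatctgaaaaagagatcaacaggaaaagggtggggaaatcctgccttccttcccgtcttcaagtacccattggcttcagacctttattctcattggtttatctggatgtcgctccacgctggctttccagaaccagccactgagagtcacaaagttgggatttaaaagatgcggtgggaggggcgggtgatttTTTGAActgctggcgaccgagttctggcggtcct
Bub1, chr2:127831810-127832109, minus strand: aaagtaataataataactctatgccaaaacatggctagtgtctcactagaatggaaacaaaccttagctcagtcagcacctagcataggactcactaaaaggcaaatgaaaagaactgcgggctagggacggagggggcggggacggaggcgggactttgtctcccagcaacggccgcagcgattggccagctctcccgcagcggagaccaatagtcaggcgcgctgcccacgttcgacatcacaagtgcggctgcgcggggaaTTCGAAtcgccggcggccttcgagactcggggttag

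E2F letters stood in the windows of 9 of 14 replication genes (64.3%), namely Cdc6, Cdt1, Mcm3, Mcm5, Mcm6, Mcm7, Rrm1, Rrm2 and Uhrf1. They stood in 2 of 20 mitotic genes (10.0%), Cdk1 and Mki67, and in 9.57% of all 32851 windows of the table. CHR letters stood in 3 of 14 replication genes (21.4%), 15 of 20 mitotic genes (75.0%) and 19.2% of all windows. The CCAAT box, the letters bound by NF-Y, was found in 10 of 14 replication genes (71.4%), 16 of 20 mitotic genes (80.0%) and 37.4% of all windows. In genes outside the set, E2F letters were found in 13 of 21 other replication genes (61.9%) and 8 of 32 other mitotic genes (25.0%), and CHR letters in 4 of 21 (19.0%) and 26 of 32 (81.2%). The CCAAT box was found in 9 of 21 other replication genes (42.9%), a lower share than in the replication genes of the set, and in 23 of 32 other mitotic genes (71.9%). A match of letters describes the window only and is not a measured binding site. A gene with 2 windows counted as matched if either held the letters, which concerned 4 members.

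**Figure D1:**
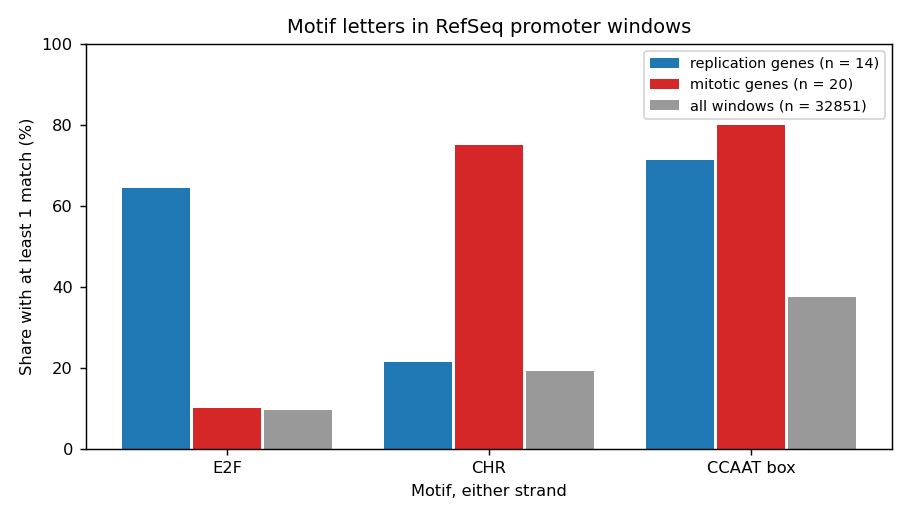
Share of promoter windows (percent, y axis) that hold at least 1 match of each motif on either strand, for replication genes, mitotic genes and all windows of the table. E2F letters were found in 64.3% of replication genes and 10.0% of mitotic genes, CHR letters in 21.4% and 75.0%.

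The arrays were not on the same level. The median over all genes was 4.999 to 5.063 in the lines, 4.934 and 4.941 in PH 1 and PH 2, 5.797 in PH 3, and 4.965 and 4.971 in the MEF arrays. Spiked-in bacterial controls averaged 8.953 to 9.142 in the lines and PH 3, against 8.029 to 8.61 in the other 4 arrays. PH 1 and PH 2 differed from each other with a standard deviation (SD) of 0.159 over genes, against 0.570 for the MEF pair. Each result below is therefore given as deposited and, where it changes, after subtracting array medians or without PH 3. Hepatocyte markers (9 genes) averaged 5.02 to 7.38 in the lines, 9.51 to 9.95 in PH and 4.20 to 4.30 in MEF. In 4a1CK albumin (4.01, against 4.12 and 4.01 in MEF), fibrinogen beta (3.36, against 2.93 and 3.01) and Ambp (3.73, against 3.86 and 3.70) were near the MEF level. Albumin was also near it in 4a3CK (3.80), with 9.30 in 4a3, and Ambp was near it in all 3 lines. Other hepatocyte markers went the other way. Apoa1 read 10.39, 12.66 and 12.82 in 4a1CK, 4a3CK and 4a3, against 5.30 and 4.29 in MEF and 10.45, 10.24 and 9.35 in PH 1 to PH 3. In 4a3CK and 4a3, fibrinogen beta read 10.92 and 12.21, and Trf 11.68 and 8.21. All lines lay above both MEF arrays for 4 of the 9 hepatocyte markers. Fibroblast markers (9 genes) averaged 3.76 to 4.36 in the lines, 4.36 to 4.43 in PH and 8.76 to 9.93 in MEF. Macrophage, erythroid and endothelial markers averaged at most 5.80, 5.19 and 4.77 on any array, and bile duct markers 5.681 to 6.467 in the lines, 5.862 to 5.999 in PH and 4.819 to 5.144 in MEF. Single macrophage markers stood well above that average. Lyz2 read 8.54 and 9.28 in MEF 1 and MEF 2, and Cd14 read 9.75, 10.29 and 9.10 in PH 1 to PH 3 and 9.06 in 4a3CK. In MEF 1 and MEF 2, C1qa read 3.92 and 6.77 and C1qb 4.08 and 6.46. The part of these cell types in the cell cycle results was not tested.

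Mitotic genes were higher in the iHep lines than in primary hepatocytes, and replication genes for the most part were not. Passing required at least a 2-fold difference and an adjusted p under 0.05 (limma, Benjamini-Hochberg over 17097 genes). Of 25 mitotic genes, 10 passed as higher in iHep, and of 16 replication genes 2 did. Over all genes 1.49% passed as higher in iHep and 5.64% as lower. No member passed as lower by limma, and 2 of 49 were lower at an unadjusted p under 0.05. The median log2 difference was 1.01 for mitotic genes (23 of 25 above 0) and 0.13 for replication genes (9 of 16 above 0), against -0.09 for all genes. The 3 lines lay above all 3 PH arrays for 20 of 25 mitotic genes and 3 of 16 replication genes, against 5.04% of all genes. They lay below all PH arrays for 1 replication gene, Mcm5, and 0 mitotic genes, against 21.3% of all genes. After subtraction of array medians the lines lay above all PH arrays for 21 mitotic and 5 replication genes, against 4826 of 17097 genes. Without PH 3 the counts were 22 and 6, against 7805 of all genes. For replication genes these shares were not far from those of all genes. After the subtraction no member of either class lay below all PH arrays, against 2334 of all genes.

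Cenpa encodes the histone H3 variant that marks the centromere. It read 9.19, 8.91 and 9.15 in 4a1CK, 4a3CK and 4a3, 6.18, 6.26 and 7.49 in PH 1 to PH 3, and 7.92 and 8.11 in MEF 1 and MEF 2. Every line lay above every other array, and PH lay below MEF. The iHep minus PH difference was 2.44 ± 0.35 (standard error, SE; 5.43-fold, adjusted p = 0.00461 by limma, n = 3 each), and this call was kept in all 22 alternatives run for it. The other Cenpa probe set differed by 1.93.

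Bub1 is a kinase of the spindle checkpoint, which delays chromosome separation until every kinetochore is attached. Its signal was 8.44, 8.69 and 8.28 in 4a1CK, 4a3CK and 4a3, 6.39, 6.70 and 7.26 in PH 1 to PH 3, and 7.41 and 8.15 in MEF 1 and MEF 2. The lines were again above all other arrays. Bub1 differed by 1.69 ± 0.30 between iHep and PH (3.22-fold, adjusted p = 0.0123 by limma). Its other probe set, dimmer at a mean of 4.33, differed by -0.18, and with the mean of both probe sets the adjusted p was 0.177. Bub1b, its partner in the checkpoint, was higher by 1.76 ± 0.35 (adjusted p = 0.0193 by limma).

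Aurkb is the kinase of the chromosomal passenger complex. It read 7.58, 7.87 and 7.35 in 4a1CK, 4a3CK and 4a3, 6.08, 6.38 and 6.32 in PH 1 to PH 3, and 6.83 and 7.39 in MEF 1 and MEF 2. With this probe set the lines overlapped MEF but not PH, and PH 3 was no higher than PH 2 although its array level was raised. The other Aurkb probe set read 6.44, 6.99 and 6.27 in 4a1CK, 4a3CK and 4a3. These were above PH 1 to PH 3 (4.29, 4.55 and 5.22, highest in PH 3) and above MEF (5.20 and 6.12). The Aurkb difference from PH was 1.34 ± 0.24 (2.53-fold, adjusted p = 0.0129 by limma) with the probe set used, and 1.88 with the other. The remaining mitotic genes that passed were Ccnb2, a mitotic cyclin (1.51), Cenpe, the kinetochore kinesin (1.38), Mki67, the proliferation antigen Ki-67 (1.31), Kif20a, a cytokinesis kinesin (1.27), Cdk1, the mitotic kinase (1.10), and Top2a, which untangles sister DNA (1.08). Of 22 alternatives, Cenpe lost its call in 14, Mki67 in 13, Ccnb2 and Top2a in 11, Cdk1 in 10 and Kif20a in 8, against 5 for Bub1 and 6 for Bub1b, and Aurkb lost it in 3 of 21.

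Genes of the same class that did not pass include Aurka, the centrosomal Aurora kinase. Aurka read 7.81, 7.25 and 7.78 in 4a1CK, 4a3CK and 4a3, 6.04, 6.27 and 6.90 in PH 1 to PH 3, and 6.81 and 7.66 in the MEF arrays. Its lines did not overlap PH, with a difference of 1.21 ± 0.32 and an adjusted p of 0.0579 by limma. Kif23, a kinesin of the cell midbody, read 3.94 to 4.35 on all 8 arrays, close to the medians of 3.27 to 3.89 of control probe sets with no mouse target, so this probe set carried little signal. Cdc20, the activator of the anaphase-promoting complex, had an adjusted p of 0.0463 by limma but a difference of 0.96, under 2-fold. Differences above 0 that did not pass were also found for Kif11, the motor that keeps spindle poles apart (1.01), Cdc25c, a phosphatase that activates Cdk1 (0.95), Prc1, which bundles the central spindle (0.94), Birc5, survivin (0.86), Anln, a scaffold of the contractile ring (0.83), and cyclin Ccna2 (0.77). The centrosomal kinase Nek2 differed by 0.93, and it read 7.54, 7.35 and 7.10 in 4a1CK, 4a3CK and 4a3, against 5.73, 5.86 and 7.60 in PH 1 to PH 3. PH 3 thus lay above every line for Nek2. Mad2l1, another checkpoint protein (0.15), and the kinase Melk (-0.09) were near 0.

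**Figure D2:**
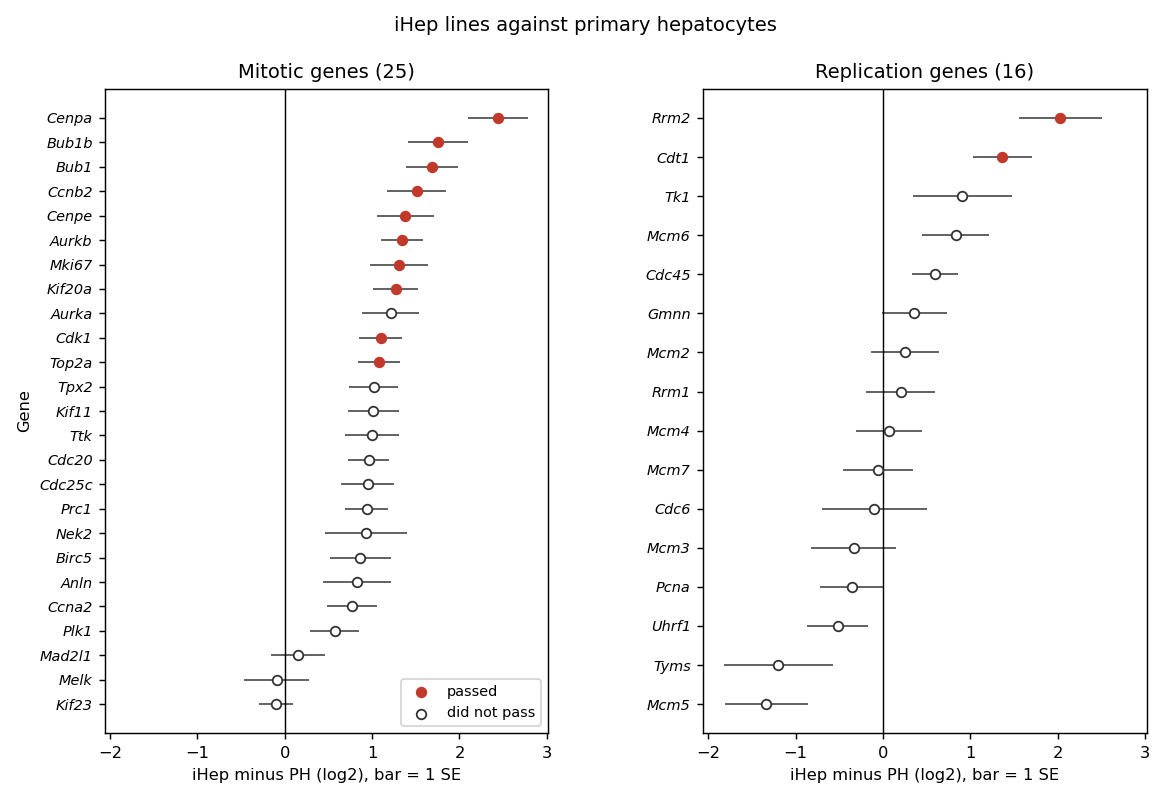
Difference between iHep lines and primary hepatocytes (iHep minus PH, log2, x axis) for each mitotic gene (left) and each replication gene (right); bars are 1 SE and filled points passed. The mitotic genes lie mostly near 1 or above, with 10 of 25 passed, and the replication genes spread from -1.33 to 2.03, with 2 of 16 passed.

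Among replication genes, Rrm2 and Cdt1 were higher in iHep than in PH. Rrm2, the regulated subunit of ribonucleotide reductase, read 11.23, 9.73 and 11.46 in 4a1CK, 4a3CK and 4a3, 8.45, 8.93 and 8.96 in PH 1 to PH 3, and 9.18 and 10.23 in MEF 1 and MEF 2. All lines were above all PH arrays, with line 4a3CK the lowest of the lines and within the range of MEF. The difference was 2.03 ± 0.47 (4.08-fold, adjusted p = 0.0372 by limma), and both its probe sets were higher in iHep, the other by 2.42. Cdt1, which loads the MCM helicase onto origins, read 10.26, 9.43 and 9.68 in 4a1CK, 4a3CK and 4a3, 8.11, 8.27 and 8.89 in PH 1 to PH 3, and 8.44 and 9.30 in the MEF arrays. It differed by 1.37 ± 0.34 (adjusted p = 0.0446 by limma), with no overlap of iHep with either other group. Of 22 alternatives, Rrm2 and Cdt1 each lost the call in 9. With the mean of all probe sets the Cdt1 difference was 0.81 (adjusted p = 0.141 by limma).

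Other replication genes pointed the other way without passing. Mcm5, a subunit of the replicative helicase, read 4.15, 5.58 and 4.26 in 4a1CK, 4a3CK and 4a3, 5.98, 6.34 and 5.66 in PH 1 to PH 3, and 6.42 and 7.79 in MEF 1 and MEF 2. The lines were below every PH and MEF array, and the difference from PH was -1.33 ± 0.47 (adjusted p = 0.138 by limma). Tyms, thymidylate synthase, read 5.30, 7.91 and 5.48 in 4a1CK, 4a3CK and 4a3, 7.10, 7.39 and 7.80 in PH 1 to PH 3, and 8.05 and 8.40 in the MEF arrays. Here 4a3CK was above all PH arrays and the other lines were below them, and the difference of -1.20 ± 0.62 had an adjusted p of 0.337 by limma. The remaining 12 replication genes differed by -0.52 (Uhrf1) to 0.91 (Tk1), and none passed. Among them the helicase subunits Mcm2, Mcm4, Mcm6 and Mcm7 differed by 0.25, 0.07, 0.83 and -0.06, in that order, the sliding clamp Pcna by -0.36, the helicase activator Cdc45 by 0.59 and the large reductase subunit Rrm1 by 0.20. The 6 helicase subunits therefore did not move in 1 direction, and for Mcm2 and Mcm3 the direction depended on the probe set. The other Mcm2 probe set read 5.44, 6.69 and 4.93 in 4a1CK, 4a3CK and 4a3, below all PH arrays (6.75, 7.23 and 6.83). Mcm3 differed by -0.34 with the probe set used. Its other probe set read 5.14, 5.76 and 5.25 in the lines, in the same order, against 4.12, 4.22 and 5.47 in PH 1 to PH 3.

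Of 37 other mitotic genes 15 passed as higher in iHep than in PH (median difference 1.03, 34 above 0), and of 27 other replication genes 0 passed (median 0.41, 21 above 0), with 4 higher and 3 lower at an unadjusted p under 0.05 in limma. The largest of the 15 were Depdc1a (2.08 ± 0.27, adjusted p = 0.00317 by limma), Hmmr, a spindle-associated hyaluronan receptor (2.06 ± 0.31, adjusted p = 0.00569), Cdca2, a phosphatase-binding chromatin protein (1.96 ± 0.37, adjusted p = 0.0156), and Spc24 of the Ndc80 kinetochore complex (1.79 ± 0.36, adjusted p = 0.0202). Hmmr read 9.44, 9.15 and 9.25 in 4a1CK, 4a3CK and 4a3, 6.85, 6.90 and 7.92 in PH 1 to PH 3, and 7.84 and 8.05 in the MEF arrays, so the lines stood above all other arrays. After subtraction of array medians 21 other mitotic and 3 other replication genes passed as higher, where 3.75% of all genes did. Without PH 3 the counts were 23 and 3, where 5.17% did. The medians of the other replication genes were 0.60 and 0.58 in these settings, in that order, with 23 and 22 of 27 above 0. Both lists were chosen with earlier results of these data known.

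The number of members that passed between iHep and PH depended on single arrays. After subtraction of array medians 19 of 25 mitotic genes (median 1.21) and 3 of 16 replication genes (median 0.33) passed as higher and no member as lower, where 3.75% of all genes were higher and 4.16% lower. Without PH 3 the total was 23 in place of 12, all higher, with 5.17% of all genes higher and 5.39% lower. With quantile normalization it was 21, where 7.86% of all genes passed in either direction. Without 4a3CK 8 members passed as higher and 2, both replication genes, as lower, and the replication median was -0.16. In that setting 344 of all genes were higher and 1112 lower. With each line as its own group 8 passed as higher and 1 replication gene as lower. The total was 1 without PH 1, 2 without PH 2, 3 without 4a3, 3 without 4a1CK, and 1 with PH 1 and PH 2 averaged. Calls over all genes also fell, from 254 higher and 965 lower as deposited. They were 81 and 495 without PH 1, 83 and 527 without PH 2, and 119 and 485 without 4a3. Without 4a1CK they were 198 and 650, and with PH 1 and PH 2 averaged 81 and 507. Set against each PH array alone, the lines' mean gave median mitotic differences of 1.42 for PH 1, 1.2 for PH 2 and 0.66 for PH 3, where the medians over all genes were 0.15, 0.15 and -0.57. The replication medians were 0.38, 0.34 and -0.31. PH 3 is also the only PH array on the lines' side of the bacterial control split.

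**Figure D3:**
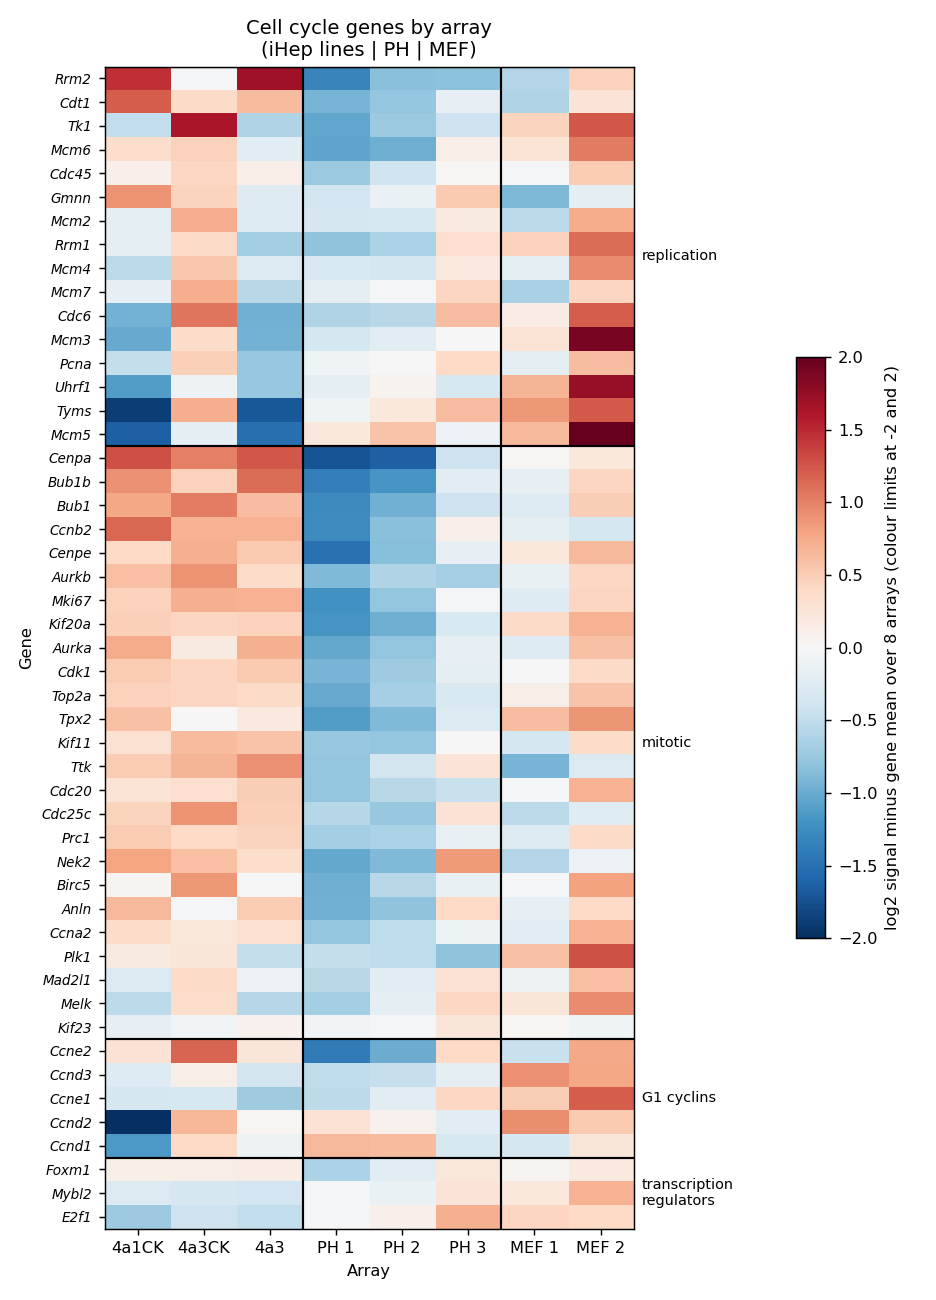
Signal of the 49 genes on each array (columns: lines, then PH, then MEF), as the log2 signal minus the gene's mean over the 8 arrays, with colour limits at -2 and 2; genes are ordered within each class by iHep minus PH. The mitotic block is high in the 3 lines and low in PH 1 and PH 2, and the replication block differs between 4a3CK and the other lines.

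Set against fibroblasts, primary hepatocytes had 3 mitotic genes and 1 G1 cyclin lower, and no replication gene that passed. Of 25 mitotic genes 3 passed as lower in PH, of 16 replication genes 0 and of 5 G1 cyclins 1, where 2.47% of all genes passed as lower and 3.37% as higher. At an unadjusted p under 0.05, limma gave 5 replication genes and 13 mitotic genes as lower in PH and no member as higher. The median differences were -0.79 for mitotic and -0.83 for replication genes, against 0.25 for all genes. Without MEF 2 they were -0.46 and -0.37, with 5 of 16 replication genes above 0. All PH arrays lay below both MEF arrays for 12 mitotic and 8 replication genes, against 7.9% of all genes, and no member of either class lay above both MEF arrays, against 30.1% of all genes. After subtraction of array medians the counts below MEF were 22 and 12, against 3306 of 17097 genes. Without PH 3 they were 23 and 12, against 4746 of all genes. In both settings no member of either class lay above MEF, against 3573 and 5277 of all genes.

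Plk1, the Polo-like kinase that drives entry into mitosis, read 6.09, 6.07 and 5.77 in PH 1 to PH 3, against 7.16 and 7.84 in MEF 1 and MEF 2. The groups did not overlap, and the lines, at 6.75, 6.81 and 6.10 in 4a1CK, 4a3CK and 4a3, lay between them. The PH minus MEF difference was -1.52 ± 0.31 (2.87-fold lower, adjusted p = 0.0239 by limma, n = 3 and 2). Tpx2, which targets Aurka to the spindle, read 6.03, 6.28 and 6.88 in PH 1 to PH 3, against 7.77 and 8.04 in the MEF arrays, a difference of -1.51 ± 0.31 (adjusted p = 0.0237 by limma). Its other probe set differed by -0.42, and with the mean of both the difference was -0.96 (adjusted p = 0.0934). Its values in 4a1CK, 4a3CK and 4a3 were 7.74, 7.16 and 7.35, and its difference between iHep and PH, 1.02 ± 0.28, had an adjusted p of 0.0622. Kif20a read 5.95, 6.14 and 6.82 in PH 1 to PH 3, against 7.51 and 7.82 in the MEF arrays, and 7.60, 7.54 and 7.58 in 4a1CK, 4a3CK and 4a3. It was lower in PH than in MEF, with a difference of -1.36 ± 0.29 (adjusted p = 0.0279 by limma), and the lines were within the MEF range. Of 25 alternatives, Plk1 lost its call in 11, Kif20a in 10 and Tpx2 in 7. For Plk1 these include subtraction of array medians (adjusted p = 0.0503 by limma).

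Several larger differences did not pass. Cenpa differed by -1.37 ± 0.39 between PH and MEF (adjusted p = 0.0860 by limma). Cenpe read 5.77, 6.41 and 7.09 in PH 1 to PH 3, against 7.47 and 7.90 in the MEF arrays, with 7.66, 7.97 and 7.78 in 4a1CK, 4a3CK and 4a3. Its groups did not overlap, and its difference of -1.27 ± 0.37 had an adjusted p of 0.0982. Tk1, cytosolic thymidine kinase, read 5.29, 5.58 and 5.91 in PH 1 to PH 3, against 6.76 and 7.56 in the MEF arrays, a difference of -1.57 ± 0.63 (adjusted p = 0.251). Its error pools the lines, which read 5.83, 7.95 and 5.72 in 4a1CK, 4a3CK and 4a3. Outside the set, Depdc1a (-2.36 ± 0.31, adjusted p = 0.00248) and the condensin subunit Ncapd2 (-1.17 ± 0.27, adjusted p = 0.0395) fell in PH and the retinoblastoma gene Rb1 rose (1.73 ± 0.34, adjusted p = 0.0184), all by limma, and 0 of 27 other replication genes passed, with 2 lower at an unadjusted p under 0.05. After subtraction of array medians 1 of the 27 passed as lower, where 3.85% of all genes did.

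After subtraction of array medians 10 mitotic, 2 replication (Mcm6 and Rrm1) and 2 G1 cyclin genes passed as lower in PH and no member as higher, where 3.85% of all genes were lower and 2.9% higher. With quantile normalization 13 members passed, where 6.66% of all genes did in either direction. Without PH 3 the total was 9 in place of 4, all lower (3.07% of all genes lower and 2.82% higher), without MEF 1 it was 1, and it was 0 without PH 1, without PH 2, without MEF 2, or with PH 1 and PH 2 averaged. Calls over all genes also fell, from 577 higher and 423 lower as deposited. They were 397 and 289 without PH 1 and also without PH 2, and 398 and 290 with the averaging. The MEF arrays themselves differed, with class medians from their mean of -0.48 in MEF 1 and 0.48 in MEF 2 for replication genes. For mitotic genes these were -0.30 and 0.30.

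Set against fibroblasts, the iHep lines had 2 replication genes and 1 G1 cyclin lower and no mitotic gene that passed. Of 25 mitotic genes 0 passed by limma in either direction (4 higher and 1 lower at an unadjusted p under 0.05), while Mcm5, Uhrf1 and Ccnd3 passed as lower in iHep, where 4.47% of all genes passed as lower and 1.98% as higher. The members' count, 3 of 49, is near that background. Median differences were 0.31 for mitotic genes and -0.47 for replication genes, against 0.16 for all genes. Without MEF 1 the mitotic median was 0.04 and the replication median -0.96, and without MEF 2 they were 0.55 and -0.07. All lines lay above both MEF arrays for 10 mitotic genes and 1 replication gene, against 42.6% of all genes, and below both for 2 mitotic and 4 replication genes, against 18.4% of all genes.

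Uhrf1, which carries DNA methylation over to newly copied DNA, read 5.93, 6.94 and 6.29 in 4a1CK, 4a3CK and 4a3, against 7.73 and 8.79 in MEF 1 and MEF 2, and 6.87, 7.11 and 6.73 in PH 1 to PH 3. All lines were below both MEF arrays, with a difference of -1.87 ± 0.39 (3.66-fold lower, adjusted p = 0.0265 by limma). Between PH and MEF it differed by -1.35 ± 0.39 (adjusted p = 0.0940). Mcm5, given above, was lower in iHep, with a difference of -2.44 ± 0.53 (adjusted p = 0.0303 by limma). Its 4.15 and 4.26 in 4a1CK and 4a3 are as dim as the Kif23 probe set, so the size of this difference is uncertain, and with the mean of its probe sets it was -1.11 (adjusted p = 0.0941). Mcm3, another helicase subunit, read 4.14, 5.51 and 4.21 in 4a1CK, 4a3CK and 4a3, against 5.42 and 7.04 in the MEF arrays, and 4.80, 4.93 and 5.14 in PH 1 to PH 3. Line 4a3CK overlapped MEF 1, and the difference of -1.61 ± 0.54 had an adjusted p of 0.131. The other Mcm3 probe set went the opposite way, at 5.14, 5.76 and 5.25 in 4a1CK, 4a3CK and 4a3, above both MEF arrays (4.18 and 4.97). Tyms differed by -1.996 ± 0.697 (adjusted p = 0.145). Of 22 alternatives, Mcm5 lost its call in 11 and Uhrf1 in 7.

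The mitotic genes with the largest differences from MEF did not pass. Ttk, the checkpoint kinase Mps1, read 7.26, 7.43 and 7.66 in 4a1CK, 4a3CK and 4a3, against 5.82 and 6.47 in MEF 1 and MEF 2, and 5.97, 6.38 and 7.01 in PH 1 to PH 3. Its lines were above all other arrays, and the difference from MEF was 1.31 ± 0.35 (adjusted p = 0.0628 by limma). Ccnb2 read 9.12, 8.68 and 8.69 in 4a1CK, 4a3CK and 4a3, against 7.78 and 7.63 in the MEF arrays, and 6.73, 7.14 and 8.09 in PH 1 to PH 3, with a difference from MEF of 1.12 ± 0.38 (adjusted p = 0.137). After subtraction of array medians Ttk (1.25), Ccnb2 (1.06) and Cenpa (1.01) passed as higher and 5 members as lower, where 3.94% of all genes passed as higher and 5.33% as lower. Outside the set, Cep55 (1.30 ± 0.31, adjusted p = 0.0456) and Ckap2 (1.16 ± 0.28, adjusted p = 0.0444), which act in cytokinesis and at the spindle, Rb1 (1.93 ± 0.34, adjusted p = 0.0134) and the E2F partner Tfdp2 (2.04 ± 0.32, adjusted p = 0.00803) rose in iHep and the G1 kinase Cdk2 fell (-1.20 ± 0.27, adjusted p = 0.0363), all by limma. No other replication gene passed of 27, with 3 lower at an unadjusted p under 0.05.

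The count of 3 was 0 without 4a3, without 4a1CK, without PH 1 or without MEF 2, 1 without PH 2 or with PH 1 and PH 2 averaged, 6 without 4a3CK and 7 without PH 3 (5.12% of all genes higher and 5.84% lower). With quantile normalization it was 8, where 9.39% of all genes passed in either direction. Over all genes 339 were higher and 764 lower as deposited. These were 138 and 426 without 4a3, 260 and 524 without 4a1CK, and 455 and 867 without 4a3CK. They were 221 and 573 without PH 1, 204 and 566 without PH 2, and 218 and 579 with PH 1 and PH 2 averaged. The lines and the MEF arrays lie on opposite sides of the bacterial control split, so that only PH links them. With that split as a block, the median difference from MEF was -0.37 for mitotic genes and -1.07 for replication genes, against -0.57 for all genes. The sign of the mitotic median turned, and so did that of the all-gene median, which was 0.16 without the block.

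Relative to fibroblasts, replication and mitotic genes lay apart in lines 4a1CK and 4a3 and together on the other arrays. Measured from the MEF mean, the median over replication genes was -0.80, 0.17 and -0.93 in 4a1CK, 4a3CK and 4a3, -1.125, -0.77 and -0.32 in PH 1 to PH 3, and -0.48 and 0.48 in MEF 1 and MEF 2. The median over mitotic genes was 0.32, 0.28 and 0.35 in the lines, in the same order, -1.12, -0.89 and -0.34 in PH 1 to PH 3, and -0.30 and 0.30 in the MEF arrays. On this scale the classes had nearly equal medians on each PH array, and the MEF arrays mirror each other about 0 by construction. Replication minus mitotic was -1.13, -0.11 and -1.28 in 4a1CK, 4a3CK and 4a3, -0.01, 0.12 and 0.02 in PH 1 to PH 3, and -0.18 and 0.18 in the MEF arrays. A shift of a whole array cancels in this value, and 4a3CK alone among the lines lay within the range of the PH and MEF arrays. In plain signal, replication minus mitotic medians were -0.44, 0.25 and -0.87 in 4a1CK, 4a3CK and 4a3. They were 1.12, 1.07 and 0.85 in PH 1 to PH 3, and 0.03 and 0.51 in MEF 1 and MEF 2, so PH and MEF were not alike there. From the MEF mean, other replication genes had medians of -0.09, 0.27 and -0.30 in the lines, against 0.40, 0.43 and 0.40 for other mitotic genes, a smaller gap. Between groups the class medians of the fitted differences were apart by -0.88 for iHep against PH, -0.78 for iHep against MEF and -0.03 for PH against MEF, values with no test. The first of these was -1.19 without 4a3CK.

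**Figure D4:**
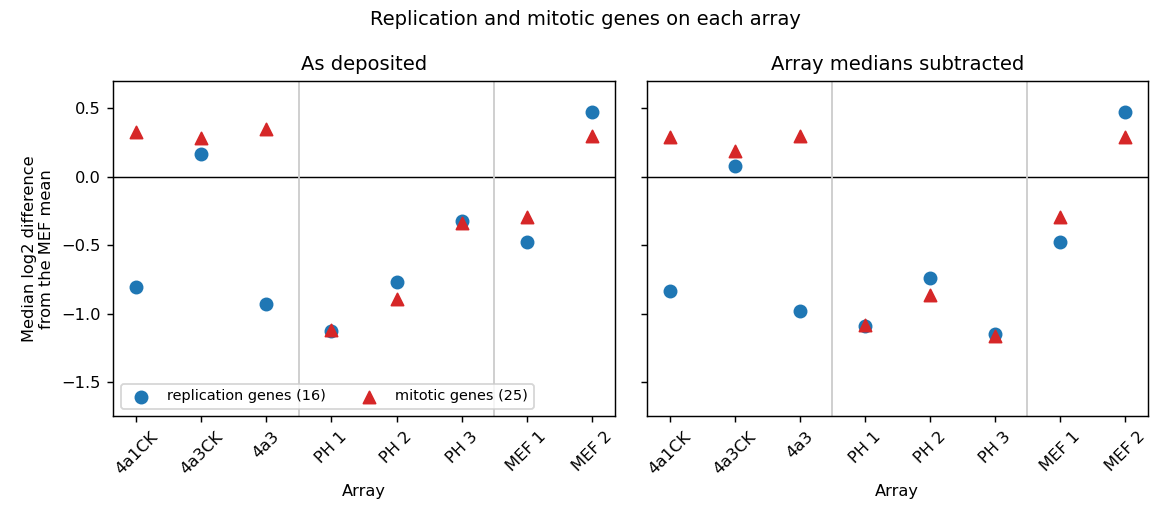
Median log2 difference from the MEF mean (y axis) over 16 replication genes (circles) and 25 mitotic genes (triangles) on each array, as deposited (left) and after subtraction of array medians (right). The classes lie together in PH, MEF and 4a3CK, and in 4a1CK and 4a3 replication genes lie at -0.80 and -0.93 while mitotic genes lie at 0.32 and 0.35.

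With 1 probe set per gene, 4a3CK differed by 2-fold or more from either other line in replication genes and in no mitotic gene. With 1 array per line these are differences of single arrays with no test, counted from 2-fold. In 4a3CK against 4a3, which differ by c-Myc and Klf4, 8 of 16 replication genes were higher and 1 was lower, against 6.47% higher and 3.33% lower over all genes, and 0 of 25 mitotic genes passed 2-fold in either direction. In 4a1CK against 4a3CK, which differ by Foxa1 in place of Foxa3, 7 replication genes were lower and 1 higher, against 6.14% and 4.6% of all genes, and again 0 mitotic genes. The 7 were 5 after subtraction of array medians and 4 with the mean of all probe sets. Other probe sets of mitotic genes did pass 2-fold: the dimmer Cenpa probe set read 6.58, 5.25 and 6.50 in 4a1CK, 4a3CK and 4a3, and the other Kif23 probe set read 4.32, 5.10 and 3.92. Line 4a1CK lay within 1 log2 unit of 4a3 for 15 of 16 replication genes and 25 of 25 mitotic genes, although it carries c-Myc and Klf4 as 4a3CK does. The exception was Gmnn, the inhibitor of Cdt1, at 8.96 in 4a1CK and 7.79 in 4a3.

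Tyms was higher in 4a3CK than in 4a3 by 2.43, Tk1 by 2.23, Cdc6, an origin loading factor, by 2.03 and Mcm5 by 1.31. Mcm5, Mcm3 and Cdc6 read 4.14 to 4.47 in 4a1CK and 4a3, near the dim level of Kif23, so the sizes of their differences are uncertain. Cdc6 read 4.47, 6.48 and 4.45 in 4a1CK, 4a3CK and 4a3, 4.81, 4.86 and 6.03 in PH 1 to PH 3, and 5.56 and 6.62 in the MEF arrays. The other lines were therefore below all PH and MEF arrays, and 4a3CK was near MEF 2. Rrm2 went the opposite way, with a difference of -1.73 for 4a3CK against 4a3 and 1.498 for 4a1CK against 4a3CK, and its other probe set gave a difference of -1.60 between 4a3CK and 4a3. The next lower genes in 4a3CK against 4a3 were Bub1b (-0.66), Aurka (-0.53) and Anln (-0.52), all under 2-fold. In 4a1CK against 4a3CK, Tyms (-2.60), Tk1 (-2.12) and Cdc6 (-2.01) were lower, and after Rrm2 the next higher genes, under 2-fold, were Cdt1 (0.82), Anln (0.67) and Tpx2 (0.58). Line 4a3CK was at least 2-fold above both other lines for 5 of 16 replication genes (Cdc6, Mcm3, Mcm5, Tk1 and Tyms), 3 of 27 other replication genes (Fen1, Gins2 and Lig1), 0 of 25 mitotic genes and 1 of 37 other mitotic genes (Kif22), against 3.9% of all genes, and below both for Rrm2, against 1.88%. The other 4 Tyms probe sets read 3.36 to 3.76 in the lines, near the controls with no mouse target, and the other Mcm3 probe set gave 0.51 in place of 1.30 for 4a3CK against 4a3.

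**Figure D5:**
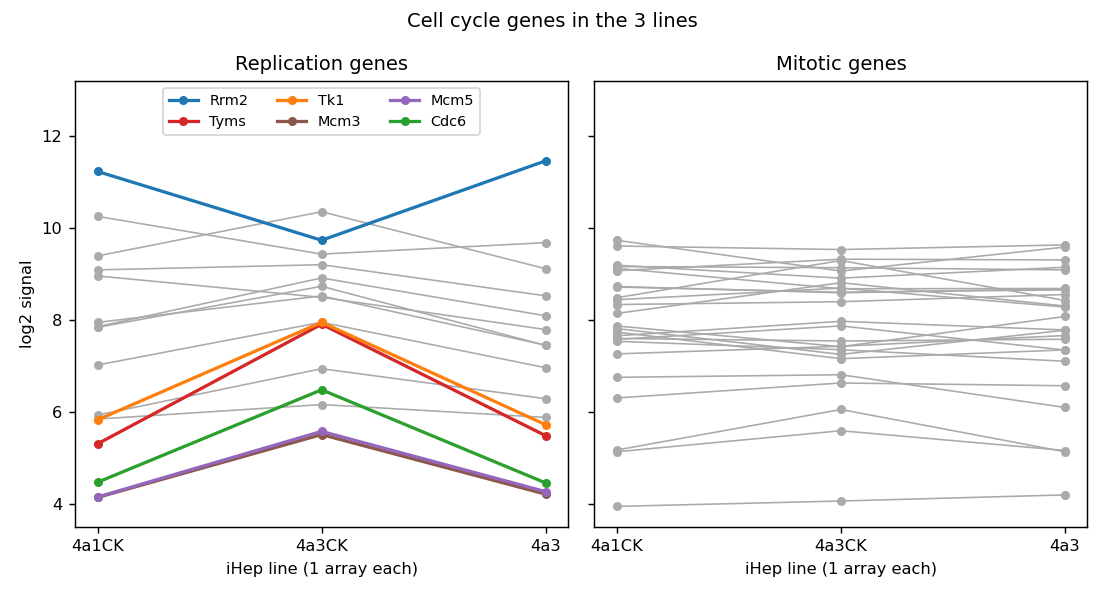
Log2 signal (y axis) of each replication gene (left) and mitotic gene (right) in the 3 lines, 1 array each; lines join the values of a gene, and 6 replication genes are coloured. Tyms, Tk1, Cdc6, Mcm5 and Mcm3 peak in 4a3CK, Rrm2 is lowest there, and with the 1 probe set per gene drawn, no mitotic gene differs by 2-fold between 4a3CK and either other line.

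The G1 cyclins, which with Cdk4, Cdk6 and Cdk2 start the cycle, differed among themselves, and all 5 read higher in 4a3CK than in either other line, by less than 2-fold except Ccnd2 and Ccnd1 against 4a1CK. Against 4a1CK the smallest gap, that of Ccne1 (4a1CK minus 4a3CK, -0.02), was close to 0, and 1 of the 5 turned after subtraction of array medians and with quantile normalization. Ccnd3 read 7.35, 7.72 and 7.24 in 4a1CK, 4a3CK and 4a3, 7.10, 7.14 and 7.42 in PH 1 to PH 3, and 8.53 and 8.38 in MEF 1 and MEF 2. Both iHep (-1.02 ± 0.24, adjusted p = 0.0418) and PH (-1.23 ± 0.24, adjusted p = 0.0186) were lower than MEF by limma, with no overlap. Its other probe set was dim, with group means from 3.17 to 4.40, and it differed by 1.22 between iHep and MEF, in the opposite direction. The Ccnd3 call was kept in 10 of 22 alternatives for iHep and in 16 of 25 for PH.

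Ccnd2 read 7.79, 10.78 and 10.16 in 4a1CK, 4a3CK and 4a3, 10.41, 10.19 and 9.89 in PH 1 to PH 3, and 11.04 and 10.64 in the MEF arrays. Line 4a1CK stood alone at the low end, with a difference of -2.995 from 4a3CK, and all 6 probe sets gave differences from -2.995 to -4.453. Ccnd1 read 8.32, 9.87 and 9.37 in 4a1CK, 4a3CK and 4a3, 10.12, 10.11 and 9.14 in PH 1 to PH 3, and 9.11 and 9.71 in the MEF arrays, again lowest in 4a1CK, with a difference of -1.55 from 4a3CK. The 3 groups overlapped for Ccnd1.

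Ccne1 read 5.68, 5.70 and 5.30 in 4a1CK, 4a3CK and 4a3, 5.48, 5.79 and 6.43 in PH 1 to PH 3, and 6.50 and 7.22 in the MEF arrays. Both iHep and PH were below MEF without overlap, with differences of -1.30 ± 0.34 for iHep (adjusted p = 0.0624 by limma) and -0.96 ± 0.34 for PH (adjusted p = 0.188). Ccne2 read 7.33, 8.21 and 7.29 in 4a1CK, 4a3CK and 4a3, 5.64, 6.05 and 7.44 in PH 1 to PH 3, and 6.60 and 7.80 in the MEF arrays, with a difference of 1.23 ± 0.52 between iHep and PH (adjusted p = 0.221). Of 20 other G1 kinases, Rb and E2F proteins, 1 passed between iHep and PH, Tfdp2 (1.22 ± 0.29, adjusted p = 0.0374 by limma).

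The 3 transcription factors did not pass between any groups as deposited. E2f1 read 4.61, 4.92 and 4.85 in 4a1CK, 4a3CK and 4a3, 5.32, 5.44 and 6.05 in PH 1 to PH 3, and 5.77 and 5.74 in the MEF arrays. The lines were below all other arrays, with differences of -0.81 ± 0.24 from PH (adjusted p = 0.0832 by limma) and -0.97 ± 0.27 from MEF (adjusted p = 0.0759). After subtraction of array medians the difference from MEF was -1.02, and it passed. The other E2f1 probe set was nearly as bright, with a mean of 5.23 against 5.34. It read 4.95, 5.31 and 4.94 in 4a1CK, 4a3CK and 4a3, which overlapped PH (5.21, 5.38 and 5.10) and lay below MEF (5.41 and 5.53). Mybl2 read 4.29, 4.25 and 4.20 in 4a1CK, 4a3CK and 4a3, 4.54, 4.44 and 4.83 in PH 1 to PH 3, and 4.78 and 5.27 in the MEF arrays, lower in the lines without overlap but with adjusted p-values of 0.425 against PH and 0.103 against MEF. Its values in the lines are as dim as the Kif23 probe set. Foxm1 read 5.57, 5.58 and 5.61 in 4a1CK, 4a3CK and 4a3, 4.81, 5.23 and 5.67 in PH 1 to PH 3, and 5.502 and 5.65 in the MEF arrays, and the groups overlapped.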

How the data were processed

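Total RNA was hybridized to 8 single-channel 3' expression arrays (iHep n = 3, PH n = 3, MEF n = 2). The authors deposited log2 signals for each probe set, and the submitters' processing notes name RMA and Partek, whose versions are not stated there. These values were used unchanged. Among 45141 probe sets, 104 controls aside, 28898 had 1 symbol, 551 several and 15588 none. A 3-group model with 5 residual degrees of freedom was fitted to 17097 genes with lmFit and eBayes of limma 3.58.1 (R 4.3.3), two-sided, with Benjamini-Hochberg adjustment over all genes, and was tested on simulated data. Passed means an adjusted p under 0.05 and a log2 difference of at least 1. Precision is set by how few arrays there are. Pairs of lines were compared without a test.

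The members and lists were chosen with earlier results of these data known. Every array was given, per class and comparison, for up to 3 members with the smallest p that passed, up to 2 with the largest difference that did not, and all G1 cyclins and transcription regulators; up to 4 genes came from each other list. Promoter windows were RefSeq's. Alternatives covered probe sets, dim genes, normalization, variance, groups in the fit, thresholds, blocks, averaging PH 1 with PH 2 and leaving out each array. The crossed pairing, the same 4 arrays without a block and quantile normalization without PH 3 were chosen after seeing the data. Only MEF and PH share replicate numbers. Across genes the difference of MEF 1 and MEF 2 correlated with that of PH 1 and PH 2 at -0.197, so the numbers do not pair the arrays. Python 3.11.15, pandas 2.3.3, numpy 2.4.6 and matplotlib 3.10.9 were used.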

Additional observations from a re-analysis of the deposited data

How the results depend on the processing

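The number of arrays and their unequal levels limited these results, and the cause of the changes below was not tested. Members passed between PH and MEF numbered 4 as reported, 2 with the mean of all probe sets, 13 with quantile normalization, 14 after subtracting array medians, 7 with a block by accession range, 9 with a block by bacterial control level, 9 with the same 4 arrays without a block, 9 with quantile normalization without PH 3, 0 at an adjusted p under 0.01 and 0 with PH 1 and PH 2 averaged. With the replicate block they numbered 6 and with the crossed pairing 4. Over all 17097 genes, 577 were higher and 423 lower as reported. With the accession block these were 798 and 478, and with the bacterial control block 482 and 525. At an adjusted p under 0.01 they were 269 and 253, and with PH 1 and PH 2 averaged 398 and 290. Between iHep and MEF, members passed numbered 3 as reported, 1 with the mean of all probe sets and 8 with quantile normalization (also without PH 3). They numbered 8 after subtracting array medians, 5 with only the compared groups and 5 with a block by bacterial control level. They numbered 0 at an adjusted p under 0.01 and 1 with PH 1 and PH 2 averaged. Over all genes 339 were higher and 764 lower as reported, and 112 and 2306 with the bacterial control block. At an adjusted p under 0.01 these were 77 and 312, and with PH 1 and PH 2 averaged 218 and 579. Between iHep and PH, 254 of all genes were higher and 965 lower as reported. With the accession block these were 108 and 1198, and with the bacterial control block 124 and 2827. At an adjusted p under 0.01 they were 70 and 406, and with PH 1 and PH 2 averaged 81 and 507. Members passed in this comparison numbered 12 as reported, 21 with quantile normalization (also without PH 3) and 22 after subtracting array medians. Members numbered 5 with either block (4 higher and 1 lower), 1 at an adjusted p under 0.01 and 1 with PH 1 and PH 2 averaged. Leaving out each array gave 0 to 9, 0 to 7 and 1 to 23 in the same order. From 4-fold, the pairs of lines had 4 members for 4a1CK against 4a3CK (10 from 2-fold) and 3 for 4a3CK against 4a3 (9 from 2-fold). Ccnd3 reversed between iHep and MEF with the mean of all probe sets, at 0.10 (adjusted p = 0.858 by limma), because its other probe set differed the opposite way. The difference between the class medians moved by less than 0.42, the pooled SD between arrays, in every alternative run: leaving out arrays gave -1.19 to -0.71 for iHep against PH, -1.17 to -0.55 for iHep against MEF and -0.12 to 0.09 for PH against MEF. That SD comes mostly from the spread among the lines, 4a3CK included, so a move below it does not show that the value is stable. The -1.19 and -1.17 were both found without 4a3CK.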
